A study of Caenorhabditis elegans with 14 samples.

Results

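The Y57G11 piRNA loci are the piRNA genes whose identifiers begin with Y57G11A, Y57G11B or Y57G11C, neighbouring genomic clones of Caenorhabditis elegans chromosome IV. A clone here is a stretch of genomic DNA from the worm genome project, and its name is carried by every gene found in it. All piRNA rows of these clones were taken, apart from any among the 10 piRNAs with the highest summed counts of the study. None of the 10 lay in these clones, so 0 loci were removed and 1502 of the 15366 listed piRNA loci (9.77%) remained. Of these, 218 belong to Y57G11A, 213 to Y57G11B and 1071 to Y57G11C. All 1502 are placed on chromosome IV and annotated as 21 nucleotides long in RefSeq assembly WBcel235, so no length correction was made between loci. The labels give sequenced inserts of 22 to 30 nucleotides, and how that range bears on the counts was not tested. Detection also differed with the overlap of the annotated loci, described below. The most abundant members, 21ur-7129, 21ur-628 and 21ur-4638, had 570, 501 and 491 counts summed over both libraries. The lowest of the 10 most abundant rows had 1132 (21ur-5395, Y51H4A.101), 1165 (21ur-5597, Y105C5A.929) and 1334 (21ur-5220, Y37A1B.97), so the limit was far from any member.

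Small RNAs were sequenced from whole N2 worms, the wild-type strain, harvested as young adults after feeding RNA interference (RNAi). One group ate bacteria expressing double-stranded RNA against snpc-4, which encodes a worm counterpart of a SNAP complex subunit, a promoter-binding factor of small nuclear RNA genes, and the other ate bacteria carrying the empty vector L4440. The sources differ on whether feeding began at the L1 or the L2 larval stage. Each group has 1 library, which leaves no replicate check and no p-value. Every comparison is between 2 libraries. All intervals are 95%, and none includes variation between replicate libraries. For percentages of loci or of locus pairs, each locus or pair is taken as 1 draw, so the width follows their number. Loci are not replicates, and whether such intervals overlap describes these 2 libraries only. The other printed intervals reflect the error of read counting alone. Reads amplified by PCR and carrying no molecular identifiers are not independent molecules, so these intervals may be too narrow.

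Worm piRNAs, called 21U-RNAs, are germline small RNAs that guide the Argonaute protein PRG-1 to foreign and other unwanted transcripts. Most are transcribed one by one from tiny genes, each with its own promoter carrying a short upstream motif, and these genes crowd into broad domains of chromosome IV. The Y57G11 clones lie in such a domain. Their piRNAs are named by a 21ur number and, in parentheses where first described, by clone and gene number.

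The authors scaled counts to RPM, reads scaled to the size of the library. Their counts and RPM values imply totals of 20875010 reads in the snpc-4 RNAi library and 20413480 in the control RNAi library. The listed transcripts held 1074622 and 956653 counts in these libraries, of which piRNAs made up 32086 and 64824. All listed counts were 5.15% and 4.69% of the implied totals. One read was worth 0.0479 RPM in the snpc-4 RNAi library and 0.0490 RPM in the control library, and 3 counts were 0.144 and 0.147 RPM. No count was replaced by such a floor, and loci without reads added nothing to the sums. Messenger RNAs are not listed, and how far snpc-4 itself was depleted was therefore not analysed here.

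Reads from the Y57G11 loci were lower in the snpc-4 RNAi library. They summed to 2783 counts in the snpc-4 RNAi library and 5494 counts in the control library. These sums correspond to 133 RPM (exact Poisson interval 128 to 138) and 269 RPM (262 to 276). The ratio of snpc-4 RNAi over control was 0.495 (exact conditional interval 0.473 to 0.519). The loci held 8.67% of all piRNA counts in the snpc-4 RNAi library (exact interval 8.37 to 8.99) and 8.48% in the control library (8.26 to 8.69). Among piRNAs outside the 10 most abundant rows, their share was 13.1% and 13.2%.

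Since whole animals were sequenced, fewer germ cells and less piRNA per germ cell cannot be told apart. The mir-35 family, microRNAs of oocytes and embryos, was also lower in the snpc-4 RNAi library. Its 8 listed members summed to 16 counts in the snpc-4 RNAi library (0 to 6 per member) and 54 in the control library (0 to 15), a ratio of 0.290 (0.155 to 0.514). mir-41 had 0 counts in both libraries, and mir-42 had 0 in the snpc-4 RNAi library and 2 in the control library. All microRNAs together had a ratio of 1.15. The part of germline or embryo content in the piRNA values was not tested.

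All other listed piRNAs had nearly the same ratio. Their 13864 loci summed to 29303 counts in the snpc-4 RNAi library and 59330 in the control library, a ratio of 0.483 (0.476 to 0.490). The Y57G11 ratio divided by that of the other piRNAs was 1.03 (exact conditional interval 0.977 to 1.08), so no difference was detectable at this depth. Without the 10 most abundant piRNAs the other loci had a ratio of 0.496 (0.487 to 0.505), and the Y57G11 ratio divided by it was 0.998 (0.950 to 1.05). Members averaged 1.85 counts per locus in the snpc-4 RNAi library and 3.66 in the control library. All other piRNAs averaged more, 2.11 and 4.28, and without those 10 rows they averaged less, 1.33 and 2.62.

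Set beside other piRNA-rich clones, the Y57G11 loci lay in the middle. Clones Y105C5A and Y105C5B, with 2615 loci, had a ratio of 0.402 (0.391 to 0.413), and the Y57G11 ratio was 1.23 times theirs (1.17 to 1.30). Much of that distance rests on the 4 loci of Y105C5A and Y105C5B among the 10 most abundant rows: without them their ratio was 0.453 (0.433 to 0.474), and the Y57G11 ratio was 1.09 times it (1.03 to 1.17). Clone Y73F8A, with 1118 loci, had a ratio of 0.532 (0.497 to 0.569), and the Y57G11 ratio was 0.932 times that value (0.859 to 1.01).

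Among the 32 clones with at least 100 listed piRNA loci and at least 100 counts, the ratio ran from 0.367 to 0.886 with a median of 0.502, and all 32 were below 1. Counted from the lowest ratio, Y57G11B was at place 10, Y57G11A at 17 and Y57G11C at 18.

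**Figure D1:**
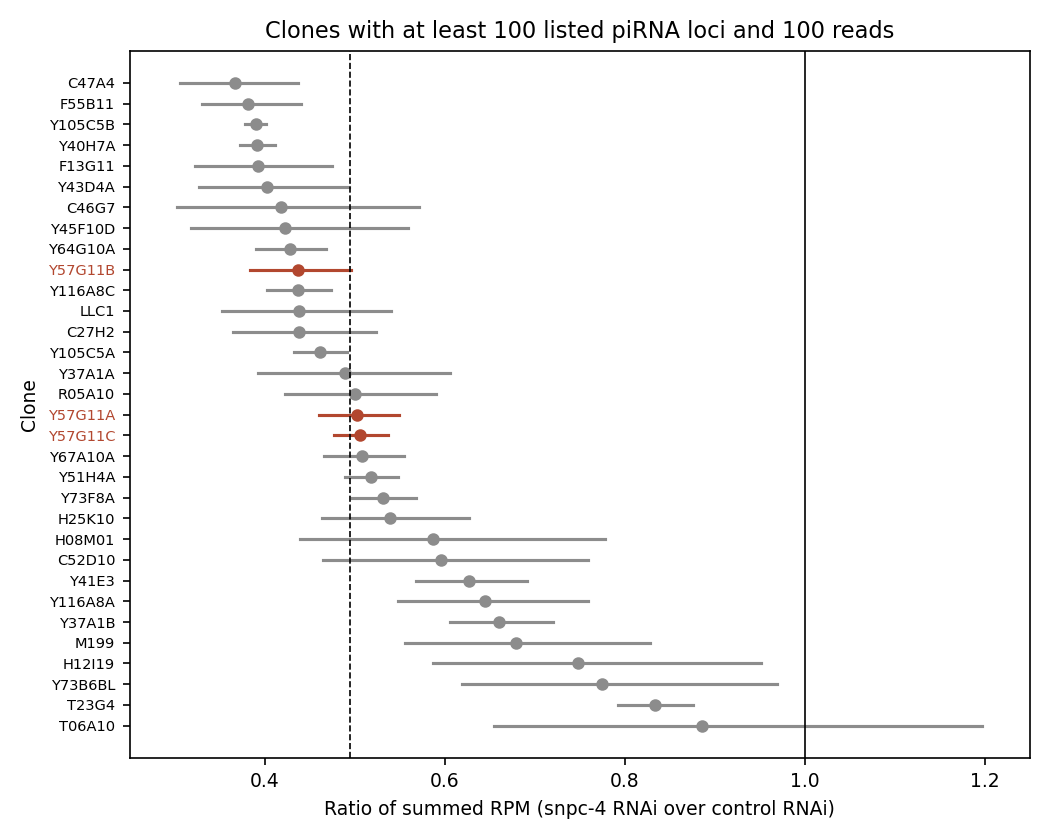
Ratio of summed RPM, snpc-4 RNAi over control RNAi, for each clone with at least 100 listed piRNA loci and 100 reads, ordered from lowest at the top to highest at the bottom. Points are ratios, bars are exact 95% intervals for counting error, the Y57G11 clones are in red, the dashed line is the ratio of all Y57G11 loci (0.495) and the solid line is 1; Y57G11A and Y57G11C lie next to each other near the dashed line.

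The 3 clones were lower in the snpc-4 RNAi library by similar amounts. Y57G11A summed to 774 counts in the snpc-4 RNAi library and 1505 in the control library, a ratio of 0.503 (0.461 to 0.549). Y57G11B summed to 352 and 788, a ratio of 0.437 (0.384 to 0.496). Y57G11C summed to 1657 and 3201, a ratio of 0.506 (0.477 to 0.537).

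The Y57G11B ratio was 0.863 times that of Y57G11C (0.749 to 0.993). That distance rests on 1 locus. 21ur-7129 (Y57G11B.154), the most abundant member, supplied 38.1% of the clone's counts in the snpc-4 RNAi library and 55.3% in the control library. Without it Y57G11B had 218 and 352 counts and a ratio of 0.606 (0.509 to 0.719). With the most abundant locus of each clone left out, the ratio of Y57G11B was 1.17 times that of Y57G11C (0.974 to 1.41), the opposite direction. Without 21ur-4638 the ratio of Y57G11A was 0.552 (0.50 to 0.608), and without 21ur-628 that of Y57G11C was 0.517 (0.485 to 0.55).

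A small number of loci carried most of the reads. In the snpc-4 RNAi library 1199 members had no read, 102 had 1 read, 151 had 2 to 9, 44 had 10 to 99 and 6 had 100 or more. In the control library these classes held 1162, 97, 157, 75 and 11 members. To reach 50% of the summed counts, 13 loci in the snpc-4 RNAi library and 11 in the control library were enough. The 10 highest loci of each library held 44.2% of the member counts in the snpc-4 RNAi library and 49.8% in the control library. All other piRNAs held 37.6% and 38.9% of their counts in their 10 highest loci, and 14.5% and 14.2% once the 10 most abundant rows were left out, though they are far more numerous. As shares of the loci, 50% of the counts came from 0.866% of the members in the snpc-4 RNAi library and 0.732% in the control library. For all other piRNAs these shares were 0.202% and 0.180%, a higher concentration, and without the 10 most abundant rows 0.946% and 0.794%, so the comparison depends on those rows.

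The most abundant members came from all 3 clones. 21ur-7129 (Y57G11B.154) had 134 counts in the snpc-4 RNAi library and 436 in the control library, a ratio of 0.301 (0.246 to 0.366). It ranked at place 20 among all piRNAs by summed counts. 21ur-628 (Y57G11C.147) had 151 and 350 reads, a ratio of 0.422 (0.346 to 0.512). 21ur-4638 (Y57G11A.14) had 129 and 362 counts, a ratio of 0.348 (0.283 to 0.427). These loci were all lower in the snpc-4 RNAi library by more than counting error.

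The next members differed more among themselves. 21ur-5142 (Y57G11A.57) had 197 counts in the snpc-4 RNAi library, the highest of any member there, and 293 in the control library, a ratio of 0.657 (0.546 to 0.790). 21ur-538 (Y57G11C.291) had 143 and 317 counts, a ratio of 0.441 (0.360 to 0.539), and 21ur-9077 (Y57G11A.199) had 147 and 307, a ratio of 0.468 (0.382 to 0.572). The intervals of 21ur-5142 and 21ur-4638, loci of the same clone with nearly equal summed counts, did not overlap. 21ur-32 (Y57G11C.248) had 67 reads in the snpc-4 RNAi library and 235 in the control library, a ratio of 0.279 (0.209 to 0.367).

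The remaining loci among the 12 with the highest mean were 21ur-1122 (Y57G11C.302), with 74 and 154 counts, 21ur-5878 (Y57G11C.517), with 85 and 141, and 21ur-4554 (Y57G11A.18), with 80 and 140, in the snpc-4 RNAi and control libraries. 21ur-3471 (Y57G11C.298) had 26 counts in the snpc-4 RNAi library and 100 in the control library, a ratio of 0.254 (0.158 to 0.395). Among these 12, 21ur-3762 (Y57G11C.214) was the exception. It had 90 counts in the snpc-4 RNAi library and 72 in the control library, a ratio of 1.22 (0.887 to 1.69), which includes 1.

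**Figure D2:**
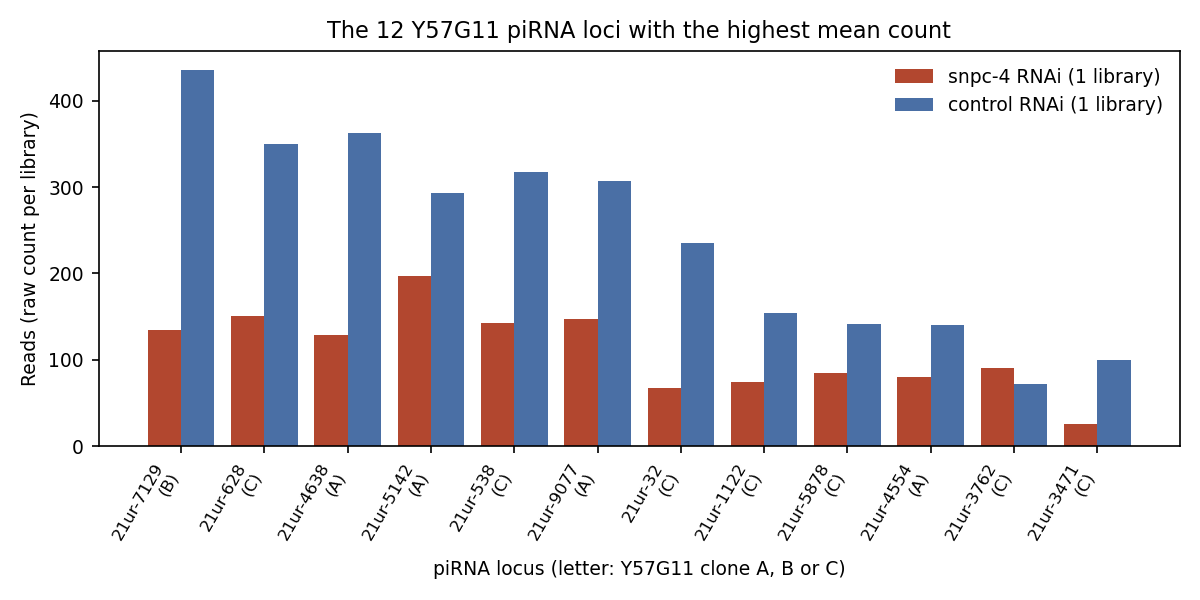
Raw read counts of the 12 Y57G11 piRNA loci with the highest mean over both libraries, snpc-4 RNAi (red, left) and control RNAi (blue, right), 1 library each. The control bar is the higher of the pair for every locus shown except 21ur-3762, with 90 and 72 counts.

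Per locus, the log2 ratio was computed after adding 1 read to each count, for members with a mean of at least 10 counts over both libraries. Of the 1502 members 69 (4.59%) reached this minimum: 13 in Y57G11A, 8 in Y57G11B and 48 in Y57G11C. The other 1433 were too sparse to be read one by one. The median of the 69 was -1.13, with quartiles of -1.48 and -0.67, and single values ran from -3.03 to 1.42. The 491 other piRNAs above the same minimum had a median of -1.11, with quartiles of -1.54 and -0.50.

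Among the 69, 61 were lower in the snpc-4 RNAi library and 8 were higher. Lower values made up 89.8% of the other piRNAs, 89.6% of all piRNAs and 70.3% of all 1109 listed transcripts above the minimum, and higher values 10.2%, 10.4% and 29.7%. A log2 ratio of -1 or less, 2-fold lower, was reached by 42 members (60.9%), and by 55.0% of the other piRNAs, 55.7% of all piRNAs and 29.4% of all transcripts. A 2-fold higher value was reached by 1 member, 21ur-7374, and by 0.815% of the other piRNAs, 0.893% of all piRNAs and 2.61% of all transcripts. The 1109 transcripts include 560 piRNAs, the members among them. These piRNAs supplied 502 of the 780 lower transcripts and 312 of the 326 at least 2-fold lower. They supplied 58 of the 329 higher transcripts and 5 of the 29 at least 2-fold higher. The shares of the members lay near the background of piRNAs at large.

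**Figure D3:**
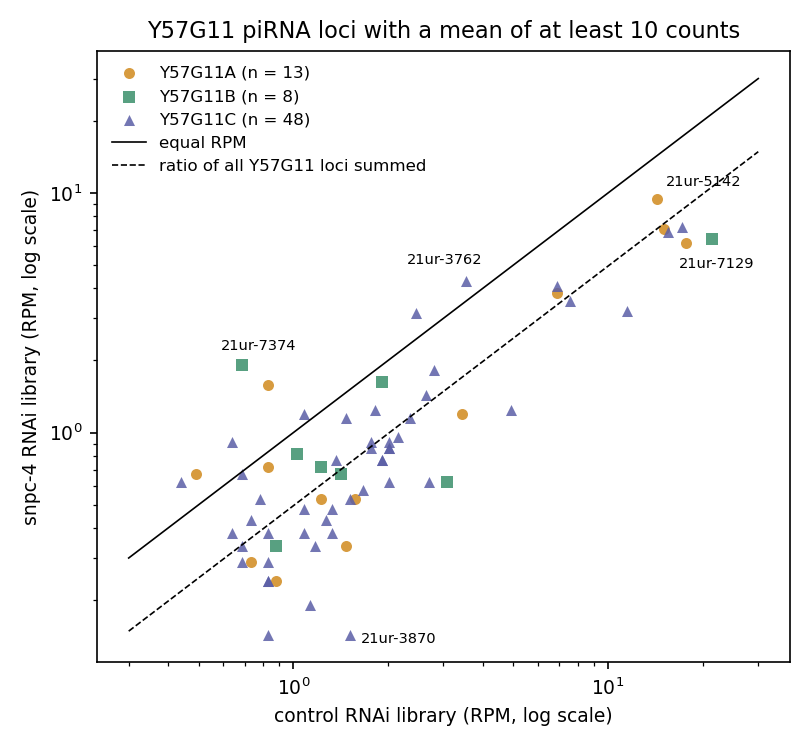
RPM in the snpc-4 RNAi library (vertical, log scale) against RPM in the control RNAi library (horizontal, log scale) for the 69 Y57G11 piRNA loci with a mean of at least 10 counts, 1 point per locus, with the clone given by colour and shape. The solid line is equal RPM and the dashed line is the summed ratio of all 1502 loci (0.495); most points lie below the solid line and scatter on both sides of the dashed one.

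The lowest ratios were spread over the clones. 21ur-3870 (Y57G11C.383) had 3 counts in the snpc-4 RNAi library and 31 in the control library, a ratio of 0.0946 (0.0185 to 0.303). 21ur-2951 (Y57G11C.358) had 4 and 23 counts, 21ur-4185 (Y57G11B.25) had 13 and 63, and 21ur-10841 (Y57G11C.878) had 3 and 17. 21ur-6987 (Y57G11C.807) had 13 and 55, and 21ur-1115 (Y57G11A.72) had 7 and 30. These are the 6 lowest log2 ratios above the minimum, between -3.03 and -1.99. Several rest on 3 to 7 reads in the snpc-4 RNAi library, and their intervals are correspondingly wide.

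At the other end, 8 members had a higher RPM in the snpc-4 RNAi library. 21ur-7374 (Y57G11B.172) had 40 counts in the snpc-4 RNAi library and 14 in the control library, a ratio of 2.79 (1.49 to 5.56). 21ur-8595 (Y57G11A.130) had 33 and 17 counts, a ratio of 1.90 (1.03 to 3.63). These were the only 2 of the 69 whose interval lay above 1. For 45 it lay below 1 and for 22 it included 1. Of the 491 other piRNAs above the minimum, the interval lay above 1 for 6, below 1 for 283 and included 1 for 202. The other members with a higher RPM in the snpc-4 RNAi library were 21ur-3762 with 90 and 72 counts, 21ur-5663 (Y57G11C.665) with 66 and 50, and 21ur-6442 (Y57G11C.548) with 19 and 13. 21ur-8037 (Y57G11C.708) had 13 and 9 counts and 21ur-7190 (Y57G11A.158) had 14 and 10. The last, named after its values were seen, was 21ur-884 (Y57G11C.317), with 25 and 22.

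The spread of ratios between loci was wider than counting error alone for part of the members. The interval of a locus excluded the summed ratio of all members (0.495) for 17 of the 69 (24.6%), lying below it for 7 and above it for 10. The same measure, taken against their own summed ratio, was 28.9% of the 491 other piRNAs. The 7 below were 21ur-7129, 21ur-4638, 21ur-32, 21ur-3471, 21ur-4185, 21ur-6987 and 21ur-3870. The 10 above were 21ur-5142, 21ur-4349 (Y57G11B.29, 34 and 39 counts) and the 8 members with a higher RPM in the snpc-4 RNAi library. Despite these differences the order of the loci was largely kept: across the 69, counts in the 2 libraries had a Pearson r of 0.83 on the log2(count + 1) scale and a Spearman rho of 0.69, given as a description, since both libraries share the same loci and the loci were selected on their mean.

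The summed ratio was lower for abundant than for sparse members, and the other piRNAs showed the same order. Members with a summed count of 100 or more, 13 loci, had 1389 counts in the snpc-4 RNAi library and 2957 in the control library, a ratio of 0.459 (0.431 to 0.490). The 56 with 20 to 99 summed counts had a ratio of 0.501 (0.460 to 0.546), and the 117 with 5 to 19 had 0.576 (0.509 to 0.651). The 112 with 2 to 4 summed counts had a ratio of 0.636 (0.502 to 0.804), and the 91 with a single read in all had 40 and 51 counts, a ratio of 0.767 (0.494 to 1.18). From the most to the least abundant class, the other piRNAs had ratios of 0.457, 0.503, 0.555, 0.626 and 0.746. The intervals of neighbouring classes overlapped among the members, while those of the highest and of the class with 5 to 19 counts did not.

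Fewer Y57G11 loci had reads in the snpc-4 RNAi library, by a small margin. At least 1 read was found at 303 of 1502 loci in the snpc-4 RNAi library (20.2%, exact interval 18.2 to 22.3) and at 340 in the control library (22.6%, 20.5 to 24.8). The intervals overlapped. At least 10 reads were found at 50 loci (3.33%) and 86 loci (5.73%), with intervals of 2.48 to 4.37 and 4.61 to 7.02. The other piRNAs had shares with at least 1 read of 18.8% and 21.6%, and with at least 10 reads of 2.66% (2.40 to 2.94) and 4.52% (4.18 to 4.87). At both limits their intervals overlapped those of the members. At least 3 reads were found in the snpc-4 RNAi library at 10.6% of members (9.07 to 12.3) and 8.29% of other piRNAs (7.84 to 8.77), without overlap. In the control library these shares were 12.5% (10.9 to 14.3) and 11.3% (10.8 to 11.8), with overlap.

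Taken locus by locus, 254 members (16.9%) had reads in both libraries and 1113 (74.1%) in neither. Another 49 (3.26%) had reads in the snpc-4 RNAi library alone and 86 (5.73%) in the control library alone. Of the other piRNAs, 14.9% had reads in both libraries and 74.4% in neither. Reads in the snpc-4 RNAi library alone were found at 3.94% of them, and in the control library alone at 6.72%. Members seen in 1 library had few reads. The highest count was 5 for a locus seen only in the snpc-4 RNAi library and 7 for one seen only in the control library, and 40 and 51 of them had a single read. No member had at least 10 counts in one library and 0 in the other. This pattern was found at 4 of the 13864 other piRNAs, all of them undetected in the snpc-4 RNAi library. At so small a share, the 0 among 1502 members does not set these clones apart.

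Detection differed far more by the overlap of the annotated loci than between the libraries. By the RefSeq annotation, 690 of the 1502 members (45.9%) share at least 1 base with another piRNA locus, and 656 of them (43.7%) share 16 bases or more of their 21. The most frequent case was a share of 20 bases, at 351 members, and the next was 18 bases, at 197. Among the 656, reads were found at 12 loci in the snpc-4 RNAi library (1.83%, exact interval 0.949 to 3.17) and 16 in the control library (2.44%, 1.40 to 3.93). Among the 812 members that share no base, reads were found at 285 loci in the snpc-4 RNAi library (35.1%, 31.8 to 38.5) and 316 in the control library (38.9%, 35.5 to 42.4).

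**Figure D4:**
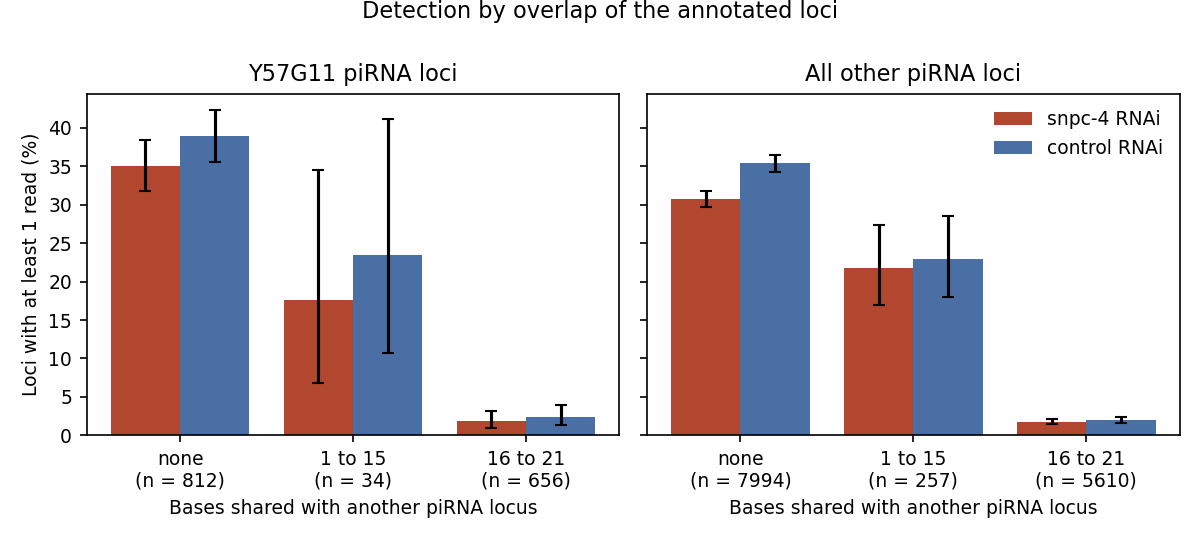
Percentage of loci with at least 1 read in the snpc-4 RNAi (red, left) and control RNAi (blue, right) libraries, by the number of bases a locus shares with another piRNA locus in the RefSeq table, for the Y57G11 loci and for all other piRNA loci with a position in that table. Bars are exact 95% intervals over loci. Among Y57G11 loci the share is 35.1% and 38.9% without overlap, and 1.83% and 2.44% with 16 to 21 shared bases.

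Of 361 pairs of members adjacent in order that share at least 16 bases, 0 had reads at both loci, which allows a share of up to 0.831%. At the low detection of such loci, their squared share gives 0.336 pairs, so this 0 says little about the partners. In 20 pairs 1 locus had reads and in 341 neither had. The member with the most reads among those that share any base was 21ur-313 (Y57G11C.233), with 6 counts in the snpc-4 RNAi library and 17 in the control library and 10 shared bases. It was also the 1 member of the 69 above the minimum with an overlap. The same was seen outside these clones: of 5610 other piRNA loci sharing 16 bases or more, 1.78% had reads in the snpc-4 RNAi library and 1.96% in the control library, against 30.7% and 35.4% of the 7994 sharing none. The table gives no strand, and how the counting treated reads that match overlapping loci is stated by no source used here, so the part of the counting in these zeros was not tested.

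Leaving out the loci with an overlap hardly moved the summed ratio, since they held few of the reads. Members that share no base held 2741 counts in the snpc-4 RNAi library and 5400 in the control library, a ratio of 0.496 (0.474 to 0.520). Those that share any base had 42 and 94 counts, a ratio of 0.437 (0.296 to 0.635). These counts are too few to tell whether the ratio differs with the overlap. Among loci that share no base, the members' 35.1% and 38.9% stood beside 30.7% (29.7 to 31.7) and 35.4% (34.3 to 36.4) of all other piRNAs. In the control library the intervals overlapped, and in the snpc-4 RNAi library they were separated by a narrow gap. Other piRNA-rich clones were close to the members, with 31.7% (29.2 to 34.3) and 39.3% (36.7 to 42.0) in Y105C5A and Y105C5B and 33.4% (29.5 to 37.5) and 36.8% (32.8 to 40.9) in Y73F8A, and both intervals of each overlapped those of the members.

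By clone, loci that share no base were detected at 41.5% in the snpc-4 RNAi library and 47.2% in the control library in Y57G11A (106 loci), 34.4% and 34.4% in Y57G11B (122 loci), and 34.1% and 38.4% in Y57G11C (584 loci). The exact intervals of the 3 clones overlapped in each library.

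Some pairs of loci had the same counts. Above the minimum, 21ur-2776 (Y57G11C.272) and 21ur-2302 (Y57G11C.273) both had 16 counts in the snpc-4 RNAi library and 39 in the control library. 21ur-3085 (Y57G11C.293) and 21ur-5755 (Y57G11C.920) both had 18 and 41, and 21ur-3470 (Y57G11C.262) and 21ur-1624 (Y57G11C.335) both had 5 and 17. Whether they share reads was not tested, so their single counts are uncertain.

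Along the chromosome the reads were uneven, while the lower level in the snpc-4 RNAi library was seen in every stretch. The members were put in the order of the RefSeq table and taken in runs of 200, with 102 in the last. In that order the clones follow each other as Y57G11A, Y57G11B and Y57G11C. Summed counts in the 8 runs were 764, 345, 262, 532, 280, 176, 269 and 155 in the snpc-4 RNAi library, and 1476, 780, 461, 1214, 575, 353, 374 and 261 in the control library. The first and the fourth runs were the highest in both libraries.

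The ratio of the runs lay between 0.429 in the fourth (0.386 to 0.475) and 0.703 in the seventh (0.599 to 0.825). The high value of the seventh turns on 21ur-3762, without which it was 0.580 (0.479 to 0.700). The second run had a ratio of 0.433 (0.380 to 0.492), and without 21ur-7129, which held 50.7% of its counts, 0.600 (0.503 to 0.714). In the last run, the ratio was 0.581 (0.473 to 0.711) with 21ur-3471 and 0.784 (0.617 to 0.994) without it. The share of loci with reads in either library ran from 20.6% in the last run to 32.5% in the fourth. Members that share no base with another piRNA locus were also taken in runs of 100. Among these runs the share was highest in the fifth, 60% (49.7 to 69.7), and lowest in the sixth, 27% (18.6 to 36.8).

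**Figure D5:**
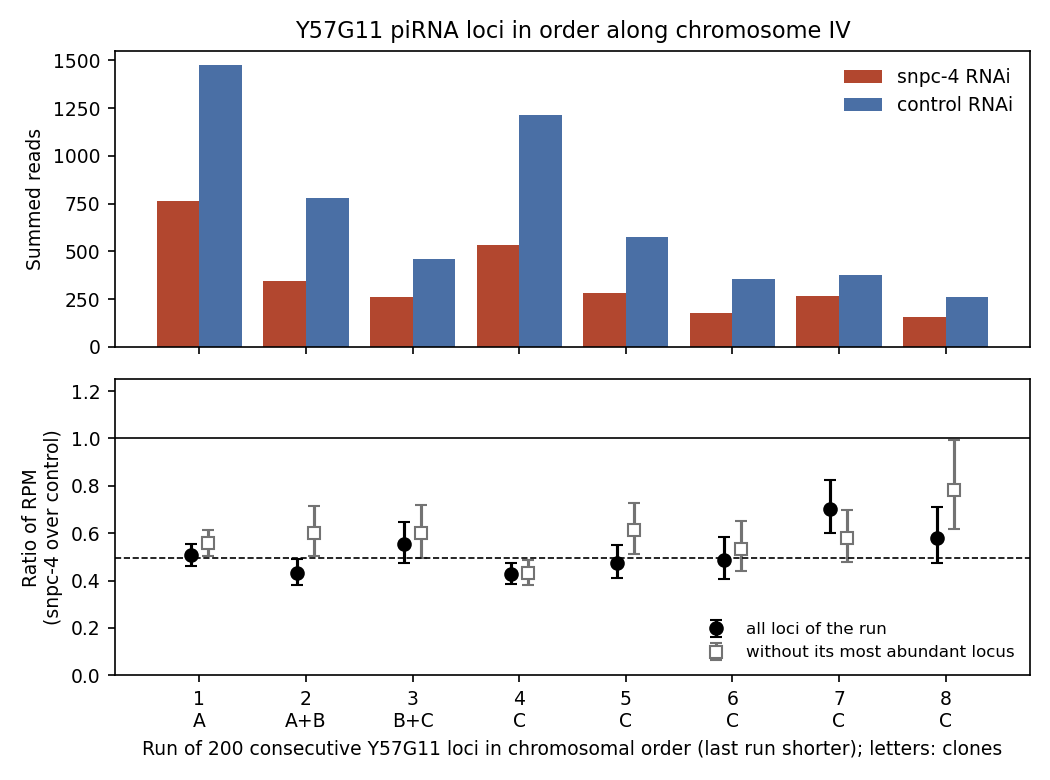
Upper panel: summed reads of consecutive runs of 200 Y57G11 loci (102 in the last) in chromosomal order, snpc-4 RNAi in red and control RNAi in blue. Lower panel: ratio of RPM, snpc-4 RNAi over control, with exact 95% intervals, for all loci of the run (filled) and without its most abundant locus (open); the dashed line is 0.495, the solid line is 1, and all values are below 1.

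Members of 1 run could differ widely in ratio. 21ur-3870, with 3 counts in the snpc-4 RNAi library and 31 in the control library, lies in the same run as 21ur-5663, with 66 and 50. In Y57G11A, 21ur-1115 with 7 and 30 counts lies in the same run as 21ur-8595 with 33 and 17. Over the 68 pairs of consecutive members above the minimum, the Pearson r of the log2 ratio was 0.092, a description over points of the same libraries. Most of these pairs have sparser loci between them, and directly adjacent loci were both above the minimum in 5 pairs, too few to compare. Over the 811 pairs of consecutive members that share no base, both loci had reads in 21.5%, where the product of the single shares gives 19.5%. The Spearman rho of summed counts over these pairs was small, 0.092, and describes sparse counts only. Whether it reflects a relation between neighbours was not tested.

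The members were also split by position inside genes. Of the 1502 members, 727 (48.4%) lie within the span of a protein-coding gene in the RefSeq table. Of other piRNAs with a position in that table, 36.5% do. The 727 members had 1305 counts in the snpc-4 RNAi library and 2453 in the control library, a ratio of 0.520 (0.486 to 0.557). The 775 outside had 1478 and 3041, a ratio of 0.475 (0.446 to 0.506). The ratio inside was 1.09 times that outside (exact conditional interval 0.998 to 1.20). The most abundant locus inside was 21ur-7129, with 570 summed counts, and outside it was 21ur-628, with 501. How far this comparison rests on these loci was not tested. Other piRNAs had ratios of 0.506 inside (0.492 to 0.521) and 0.476 outside (0.468 to 0.484), and the ratio inside was 1.06 times that outside (1.03 to 1.10). Among loci that share no base with another piRNA locus, reads in either library were found at 48.8% of the 402 members inside (43.8 to 53.8) and 39.8% of the 410 outside (35 to 44.7). The same shares of other piRNAs were 41.4% and 41.5%.

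Members with a low 21ur number were detected more often, as were other piRNAs. With numbers up to 5000, 26.6% of 557 loci had reads in the snpc-4 RNAi library and 31.1% in the control library. Above 5000 and up to 10000 the shares of 501 loci were 22.4% and 23.6%, and above 10000 those of 444 loci were 9.68% (7.10 to 12.8) and 11.0% (8.28 to 14.3). Members with high numbers also overlapped more: 35.5%, 40.3% and 57.7% of these classes share 16 bases or more with another piRNA locus. Of other piRNAs 38.0%, 36.8% and 45.7% did. Among members that share no base, the shares were 40.4% and 47.1%, 37.2% and 37.9%, and 21.3% (15.6 to 28.1) and 24.7% (18.6 to 31.7) in the snpc-4 RNAi and control libraries, so the lowest detection stayed with the highest numbers.

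The ratio by number was 0.459 (0.432 to 0.488) up to 5000, 0.548 (0.508 to 0.590) above 5000 and up to 10000, and 0.567 (0.455 to 0.705) above 10000. Without 21ur-7129 the middle value was 0.618 (0.570 to 0.670). Other piRNAs had 0.406, 0.560 and 0.788 in these classes. Up to 5000 the members' ratio was 1.13 times that of the other piRNAs (1.06 to 1.21), and 1.14 times it (1.07 to 1.22) without 21ur-628. Without the 10 most abundant other piRNAs of that class it was 1.02 times theirs (0.955 to 1.09). Above 5000 and up to 10000 it was 0.978 times theirs (0.905 to 1.06), and 1.10 times (1.01 to 1.20) without 21ur-7129. Against the other piRNAs of that class on chromosome IV it was 0.996 times theirs (0.921 to 1.08). Without the 10 most abundant other piRNAs of that class it was 1.09 times theirs (1.00 to 1.18). Above 10000 the members' ratio was 0.720 times that of the other piRNAs (0.574 to 0.900). These include 625 loci on other chromosomes, with a ratio of 0.898 (0.801 to 1.01). Against the 4523 on chromosome IV the members' ratio was 0.743 times theirs (0.592 to 0.931). Without the 10 most abundant other piRNAs of that class it was 0.747 times theirs (0.594 to 0.937). The interval reaches 1 without 21ur-10633 (Y57G11A.221), with 25 counts in the snpc-4 RNAi library and 70 in the control library, where the members had a ratio of 0.662 (0.514 to 0.850), 0.841 times that of the other piRNAs (0.650 to 1.08).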

How the data were processed

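Per the file headers, the authors deposited a count of reads and an RPM value per transcript. Counts were whole, and dividing RPM by count gave 1 constant per library; which reads the implied totals include is unstated. The submitters' processing notes name BWA, without a version. Build, annotation and counting tool were not given in the sources used here. Inserts of 22 to 30 nucleotides were sequenced per the labels, while the RefSeq piRNAs are 21 nucleotides long. The other 12 of the 14 samples were not analysed here.

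Members, lists and tests were chosen with earlier results of these data known. Named loci are the 12 highest means, the 6 lowest and 6 highest log2 ratios above the minimum, the 2 highest means of each clone and the 3 members nearest the 10 most abundant rows. Any member with at least 10 counts against 0 was also to be named. Log2 ratios used counts with 1 read added and the RPM totals, for means of at least 10 counts. Intervals are exact (Poisson, conditional binomial, Clopper-Pearson) at 95%. RefSeq WBcel235 gave names for all 1502 members and which loci neighbour, overlap or lie inside another; since the build behind the counts is unknown, no coordinates are printed. The tables used here hold no sequences, so none are printed. Overlap, equal counts, gene spans, and totals without the most abundant locus of a run or a 21ur number class were examined after the data were seen. Alternatives changed scaling, minimum, pseudocount, detection limit, comparison set and abundant loci. The steps were tested on simulated data. Software was pandas 2.3.3 and NumPy 2.4.6 under Python 3.11.15, with SciPy 1.17.1 for intervals and matplotlib 3.10.9 for plots.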

Additional observations from a re-analysis of the deposited data

How the results depend on the processing

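Of 60 alternative values for totals, medians, counts and shares, 32 kept to the interval of the main value and 28 did not. For medians and their difference that interval was taken over the ordered loci and is not printed. For counts a factor of 1.5 was used instead. Where not named, the cause was not tested. For the named loci, 138 of 144 stayed within their interval, and no sign changed. Scaling to the listed counts or to the microRNA total shifts every log2 ratio by -0.14 or -0.20, and scaling by the median ratio of other transcripts by 0.014. The log2 ratio of the members' total, -1.01, was -0.84 without the 10 most abundant members, and -1.15 and -1.21 with these 2 scalings. With them it was -1.13 and -1.19 for Y57G11A and -1.12 and -1.18 for Y57G11C, and -1.40 for Y57G11B with the microRNA total. Without their most abundant locus Y57G11A had -0.86 and Y57G11B -0.72. The median per locus was -1.27 and -1.33 under these scalings, -0.62 with a minimum mean of 1, -0.58 with 1 RPM added, and -0.032, the value of equal counts, with no minimum. The count of members at least 2-fold lower, 42, was 122, 66 and 8 with minimum means of 1, 5 and 50, 173 with no minimum, as more or fewer loci were kept, and 10 with 1 RPM added over the same 69 loci, where the larger added value draws ratios towards 1. The share of loci with reads was 10.6% and 3.33% in the snpc-4 RNAi library and 12.5% and 5.73% in the control library at limits of 3 and 10 reads. For loci sharing no base, a comparison chosen after seeing the data, it was 35.1% and 38.9%. The log2 difference from the other piRNAs, 0.036, was 0.30 against Y105C5A and Y105C5B and -0.10 against Y73F8A, and -0.0026 without the 10 most abundant piRNAs; that of the medians, -0.022, was 0.22 with a minimum mean of 50. No paired analysis was possible because each group has 1 library, which also leaves no replicate to omit.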

Other observations

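Among members sharing 17, 18, 19 and 20 bases with another piRNA locus, reads in either library were found at 1 of 60 loci (1.67%), 7 of 197 (3.55%), 6 of 37 (16.2%) and 5 of 351 (1.42%). Among other piRNAs the shares were 4.52% of 465 loci, 3.55% of 1831, 4.74% of 232 and 1.34% of 2905. The 34 members sharing 1 to 15 bases had reads in either library at 29.4% (exact interval 15.1 to 47.5), which overlaps the 44.2% (40.8 to 47.7) of members sharing none.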
